A study of Oryza sativa with 8 samples.

Results

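Glutathione S-transferases were followed through the digestion of rice roots as 36 listed loci of the Michigan State University (MSU) annotation, release 7. The tandem cluster on chromosome 10, described as tau-class, accounts for 25 of them (LOC_Os10g38140 to LOC_Os10g38780). The other 11 are the 5 loci LOC_Os01g72120 to LOC_Os01g72170, the pair LOC_Os01g49710 and LOC_Os01g49720, and the single loci LOC_Os03g17470, LOC_Os01g25100, LOC_Os01g27210 and LOC_Os01g27360. Of the listed loci, 34 had a row in the count files, which hold 55986 genes, and LOC_Os10g38495 and LOC_Os10g38501 were not analysed here. This left 23 loci of the cluster and 11 other members.

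The study compared 4 digested with 4 intact root samples of X.kitaake, which the labels call wild type. This is Kitaake rice with an XA21 transgene under the maize ubiquitin promoter, which all 8 libraries therefore share. Seedlings were raised on gellan gum with Yoshida's nutrient solution and stood for 1 to 3 days in a chamber at 28 °C. Digested roots had been treated with a cocktail of cell wall-degrading enzymes and contained freed protoplasts as well as pieces that had not come apart, whereas intact roots were taken directly from the gel. The labels give no digestion time. The aim of the comparison was to find genes whose RNA level changes with protoplasting, so that they can be left out of single-cell analyses.

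Glutathione S-transferases join the tripeptide glutathione to electrophilic compounds, among them herbicides, products of lipid oxidation and secondary metabolites, and the conjugates are then carried into the vacuole. Plants hold large families of these enzymes, of which the tau and phi classes are the most numerous, and tau-class genes often lie side by side in tandem arrays. Many of the genes are known to respond to herbicides, wounding and oxidative stress. The class of the members outside the chromosome 10 cluster is not given in the sources used here, and no individual function is assigned to any locus below.

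Digested libraries held 115006 to 471019 counts on genes and intact libraries 2333236 to 3595349, and 1 count was worth 2.46 to 9.29 CPM in digested and 0.249 to 0.407 CPM in intact libraries. CPM are counts per 1e+06 counts of a library, with the total scaled by the trimmed mean of M-values (TMM). The libraries read 1 tag near the 3′ end of each transcript, so that counts were not divided by gene length. Of 58 root cell type markers that the study lists, 52 were detected in digested and all 58 in intact roots. Among the 47 that could be tested, 1 was higher and 28 were lower in digested roots. Over all genes tested, 20% were higher and 18.5% lower. The lower markers included 7 of 8 tested trichoblast markers, whose summed level was 83.3 to 195 CPM in digested and 496 to 659 CPM in intact roots. Other cell types fell as well, with 4 of 4 tested vascular tissue markers and 6 of 8 xylem markers lower, against 1 of 5 in endodermis. None of the 5 tested meristem markers was called. The part of these cell type markers in the results below was not tested, and in bulk RNA fewer cells of a type and less RNA per cell cannot be told apart. Reads aligned at more than 1 place, which were not counted, made up 13.0% to 24.3% of the reads listed for digested and 3.93% to 5.36% of those for intact libraries. Counts of loci with close copies, as in a tandem cluster, are uncertain for this reason. The same holds for their levels, shares and ratios set against one another below. The part of these reads in the differences was not tested.

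After digestion, glutathione S-transferase RNA took up a larger share of the library, and the order of the loci by level differed. The 34 loci together carried 0.233% to 0.321% of all counts in digested and 0.117% to 0.127% in intact libraries. Enough counts to be tested were found for 16 of the 34 loci. Of these, 7 were higher in digested roots, 2 were lower and 7 were not called by edgeR's quasi-likelihood test (adjusted p under 0.05). Over all 13104 genes tested, 20% were higher and 18.5% lower, and 38.5% were called in either direction. For the members these shares were 43.8%, 12.5% and 56.3%. The median log2 fold change, digested over intact, was 0.68 for the 16 members and -0.06 for all genes tested. The libraries of the groups did not overlap for 10 of the 16 members, 8 with digested roots above and 2 below, against 37.2% of all genes tested, 17.4% above and 19.8% below. No test over the list was made. The filter on low counts keeps a gene that reaches a set CPM in at least 4 libraries, of either group. LOC_Os10g38340, LOC_Os10g38720 and LOC_Os01g72120, all called higher, were too low in intact roots and passed only through the digested libraries. LOC_Os10g38700, with 100 counts in intact and 1 in digested roots, did not pass. The shares and the median of the members depend on this selection.

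The tandem cluster contributed 5 of the higher loci and both lower ones, out of 11 tested. These were 45.5% and 18.2% of its tested loci, against 20% higher and 18.5% lower over all genes tested. LOC_Os10g38340 and LOC_Os10g38720, both higher, passed the filter only through the digested libraries, so these shares depend on that selection. LOC_Os10g38340 showed the largest change of all members. Its level was 245, 408, 325 and 379 CPM in digested replicates 1 to 4, against 10.1, 4.47, 5.38 and 3.49 CPM in intact replicates 1 to 4. The lowest digested library thus lay far above the highest intact one. The log2 fold change was 5.87 ± 0.28 (SE), a 58.7-fold difference, at an adjusted p of 9.30e-16 in edgeR, and rested on 307 counts in digested and 68 in intact roots. By fold change, this locus ranked 200 among the 13104 genes tested.

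LOC_Os10g38720, which likewise had a low level in intact roots, behaved in a comparable manner. It had 87.7, 108, 74.3 and 114 CPM in digested roots, against 6.11, 3.66, 2.87 and 3.74 CPM in intact roots. The groups did not overlap, and the log2 fold change was 4.56 ± 0.31 (SE), at an adjusted p of 1.51e-12 in edgeR, from 87 and 49 counts. After the intact counts were thinned to the mean digested depth, the fitted value was 6.01.

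LOC_Os10g38489 became the member with the highest mean level, although LOC_Os10g38740, at 706 CPM, exceeded it in digested replicate 1. LOC_Os10g38489 reached 658, 1214, 678 and 1098 CPM in digested roots, against 103, 67.1, 49.1 and 73.8 CPM in intact roots. Its log2 fold change was 3.65 ± 0.24 (SE), a 12.6-fold difference, at an adjusted p of 1.06e-10 in edgeR, and each digested library exceeded each intact one. With 862 counts in digested and 884 in intact roots, it was well covered in both groups.

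The remaining higher loci of the cluster were already well expressed in intact roots. LOC_Os10g38360 had 438, 415, 112 and 189 CPM in digested roots, against 47.8, 83.0, 88.6 and 67.1 CPM in intact roots. Digested replicates 1 and 2 lay well above replicates 3 and 4, yet all 4 exceeded the intact libraries. The log2 fold change was 2.12 ± 0.34 (SE), at an adjusted p of 0.000302 in edgeR. LOC_Os10g38740 had 706, 462, 344 and 560 CPM in digested roots, against 152, 236, 277 and 194 CPM in intact roots. The groups were separate here as well, and the log2 fold change was 1.29 ± 0.21 (SE), at an adjusted p of 1.56e-05 in edgeR.

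Both lower loci of the cluster were among its most abundant members in intact roots. LOC_Os10g38580 had 61.4, 49.2, 46.5 and 37.9 CPM in digested roots, against 176, 243, 235 and 234 CPM in intact roots. All digested libraries lay below all intact ones, with a log2 fold change of -2.15 ± 0.24 (SE), at an adjusted p of 2.28e-08 in edgeR. LOC_Os10g38670 had 57.0, 88.5, 130 and 75.7 CPM in digested roots, against 179, 234, 201 and 202 CPM in intact roots. The groups did not overlap, and the log2 fold change was -1.28 ± 0.23 (SE), at an adjusted p of 4.68e-05 in edgeR. The digested levels of these loci rest on 44 and 73 counts over the 4 libraries.

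**Figure D1:**
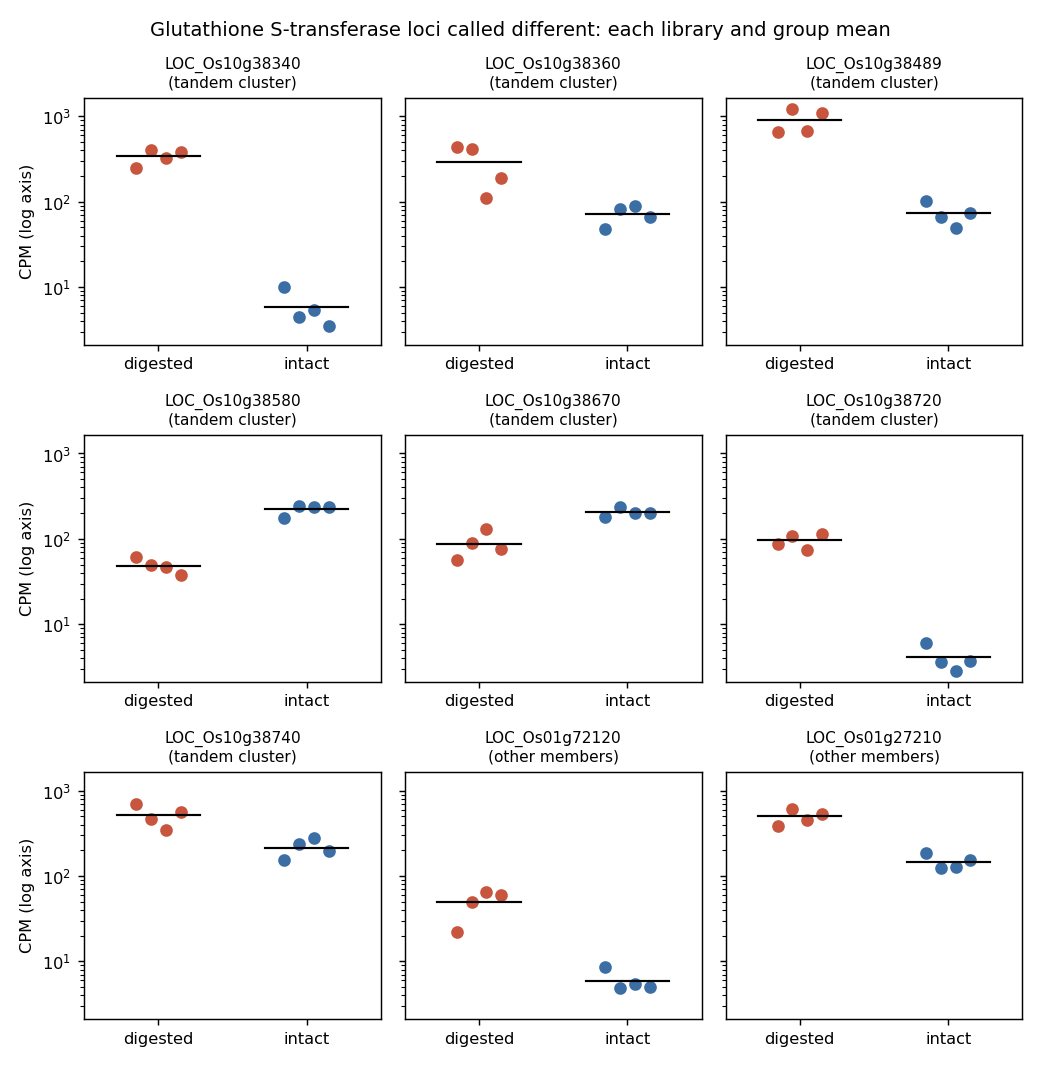
Level of the 9 called loci in each library, in CPM on a log axis, with digested roots left of intact roots. Points are libraries and black lines group means (n = 4 each). In 7 panels all digested points lie above all intact points, and in the panels of LOC_Os10g38580 and LOC_Os10g38670 all lie below.

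Outside the cluster, 2 of the 5 tested members, or 40%, were higher in digested roots and none was lower. The higher LOC_Os01g72120 passed the filter only through the digested libraries, so this share depends on that selection. Over all genes tested, 20% were higher and 18.5% lower, so that with 5 loci the lack of a lower one is not set apart from that share. None of the 5 had a lower level at an unadjusted p under 0.05 either, and DESeq2 and limma-voom also called none lower. LOC_Os01g27210 had 390, 612, 455 and 538 CPM in digested roots, against 186, 123, 129 and 153 CPM in intact roots. It was the most abundant of these 11 members in both groups, and the groups did not overlap. The log2 fold change was 1.77 ± 0.19 (SE), at an adjusted p of 9.08e-09 in edgeR. LOC_Os01g72120, the first locus of its cluster on chromosome 1, had 21.9, 49.2, 65.1 and 60.6 CPM in digested roots, against 8.63, 4.88, 5.38 and 4.99 CPM in intact roots. The digested level was based on 40 counts and lay above all intact libraries. Its log2 fold change was 2.94 ± 0.39 (SE), at an adjusted p of 4.07e-07 in edgeR.

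The remaining 7 of the 16 tested members were not called. In the tandem cluster, LOC_Os10g38590 averaged 78.7 ± 24.1 CPM in digested roots and 58.9 ± 11.8 CPM in intact ones (SD, n = 4 each), with a log2 fold change of 0.40 (adjusted p = 0.248 by edgeR). LOC_Os10g38780 averaged 37.4 ± 17.6 and 23.3 ± 1.57 CPM in digested and intact roots (SD, n = 4 each), with 0.71 on the log2 scale (adjusted p = 0.0867 by edgeR). For both, the libraries of the groups overlapped. LOC_Os10g38600 had a log2 fold change of 0.60 ± 0.57 (SE) from 12 and 107 counts. LOC_Os10g38630 had -0.88 ± 0.74 (SE) from 11 and 269 counts, and the digested counts all came from replicates 1 and 2. Without digested replicate 1, the value of LOC_Os10g38630 was -1.99 (adjusted p = 0.119 by edgeR).

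Of the other members, LOC_Os03g17470 averaged 27.9 ± 7.32 CPM in digested roots and 16.5 ± 4.77 CPM in intact ones (SD, n = 4 each). Its digested libraries, at 21.9 to 37.2 CPM, lay just above the intact ones, at 9.97 to 20.1 CPM, yet the log2 fold change of 0.65 ± 0.40 (SE) did not pass the test (adjusted p = 0.212 by edgeR). LOC_Os01g72170, with 10 and 192 counts, had a log2 fold change of -0.57 (adjusted p = 0.452 by edgeR), and LOC_Os01g27360, with 4 and 97 counts, had -0.78 (adjusted p = 0.425 by edgeR). In both, at least 1 digested library had no count, and single libraries moved the values. Digested replicate 2 held 8 of the 10 digested counts of LOC_Os01g72170, and without it the log2 fold change was -2.10 (adjusted p = 0.0794 by edgeR). Without digested replicate 3, which held 2 of the 4 digested counts of LOC_Os01g27360, that of this locus was -1.68 (adjusted p = 0.136 by edgeR).

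**Figure D2:**
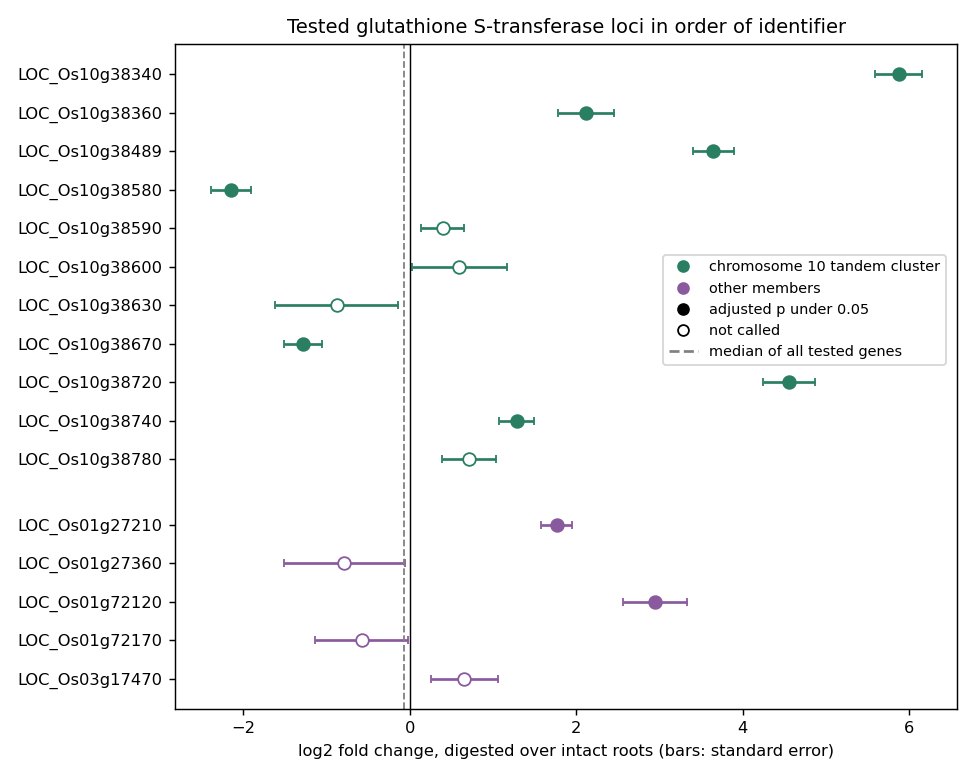
Log2 fold change, digested over intact roots, of the 16 tested members, with the 11 loci of the tandem cluster above in order of identifier and the 5 other members below. Bars are standard errors, filled points have an adjusted p under 0.05, and the dashed line at -0.06 is the median of all 13104 genes tested. Values run from 5.87 for LOC_Os10g38340 to -2.15 for LOC_Os10g38580.

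MSU identifiers are numbered along the chromosome, so that the order of the loci in the cluster can be read from them. The lower loci lay between higher ones in this order. LOC_Os10g38340, LOC_Os10g38360 and LOC_Os10g38489 were higher, LOC_Os10g38580 and LOC_Os10g38670 further along were lower, and LOC_Os10g38720 and LOC_Os10g38740 beyond them were higher again. Of the tested loci, LOC_Os10g38590, LOC_Os10g38600 and LOC_Os10g38630 lay between the lower ones, and none of them was called. LOC_Os10g38610, LOC_Os10g38640 and LOC_Os10g38660 also lay there and were not tested. LOC_Os10g38700, between LOC_Os10g38670 and LOC_Os10g38720, was not tested either. The numbering interval also held 33 loci that are not members. Of these, 23 had no count in any library and 2 were tested, 1 of which was higher and 1 lower in digested roots.

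Because members were read in the same libraries, their ratios do not depend on the scaling. Per count of LOC_Os10g38580 there were 4, 8.3, 7 and 10 counts of LOC_Os10g38340 in digested replicates 1 to 4, against 0.0573, 0.0184, 0.0229 and 0.0149 in intact replicates 1 to 4. The order of these loci was therefore opposite in the groups, in all 8 libraries. In another pair, LOC_Os10g38740 had 2.64 to 12.4 counts per count of LOC_Os10g38670 in digested and 0.853 to 1.38 in intact roots. The intact ratios of this pair lay on both sides of 1, so its order was not opposite in the groups. These pairs were chosen after the values were seen and were not tested.

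In digested roots, the order of levels was led by LOC_Os10g38489 at 912 ± 286 CPM, followed by LOC_Os10g38740 at 518 ± 153, LOC_Os01g27210 at 499 ± 96.7, LOC_Os10g38340 at 339 ± 71.3 and LOC_Os10g38360 at 289 ± 163 CPM (SD, n = 4 each). Each of these overlapped with its neighbour in the order, although the lowest library of LOC_Os10g38489, at 658 CPM, lay above the highest of LOC_Os01g27210, at 612 CPM. In intact roots, LOC_Os10g38580 at 222 ± 31.1 CPM, LOC_Os10g38740 at 215 ± 53.6 and LOC_Os10g38670 at 204 ± 22.8 CPM came first and overlapped with one another (SD, n = 4 each). LOC_Os01g27210 followed at 148 ± 28.8 CPM and was separate from LOC_Os10g38489 at 73.2 ± 22.3 CPM, while LOC_Os10g38360 came next at 71.6 ± 18.3 CPM (SD, n = 4 each).

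Expressed as a share of the counts on all members, LOC_Os10g38489 made up 28.8% ± 5.02 of them in digested roots and 6.52% ± 2.31 in intact ones (SD, n = 4 each). For LOC_Os10g38340 the share was 10.9% ± 1.94 and 0.522% ± 0.285 in digested and intact roots. LOC_Os10g38580 made up 1.60% ± 0.449 in digested and 19.5% ± 2.11 in intact roots, and LOC_Os10g38670 2.96% ± 1.52 and 17.9% ± 1.31 (SD, n = 4 each). LOC_Os10g38740, in contrast, had a like share in digested roots, 16.8% ± 5.19, and in intact roots, 18.8% ± 3.84, even though its level was higher after digestion. The 3 loci with the highest mean level in a group, LOC_Os10g38489, LOC_Os10g38740 and LOC_Os01g27210 in digested and LOC_Os10g38580, LOC_Os10g38740 and LOC_Os10g38670 in intact roots, held 59.3% to 65.9% of the members' counts in digested and 47.4% to 60.4% in intact libraries. They were not the top loci of every library, since LOC_Os10g38360 with 100 counts exceeded LOC_Os01g27210 with 89 in digested replicate 1, and LOC_Os01g27210 with 518 counts led in intact replicate 1.

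**Figure D3:**
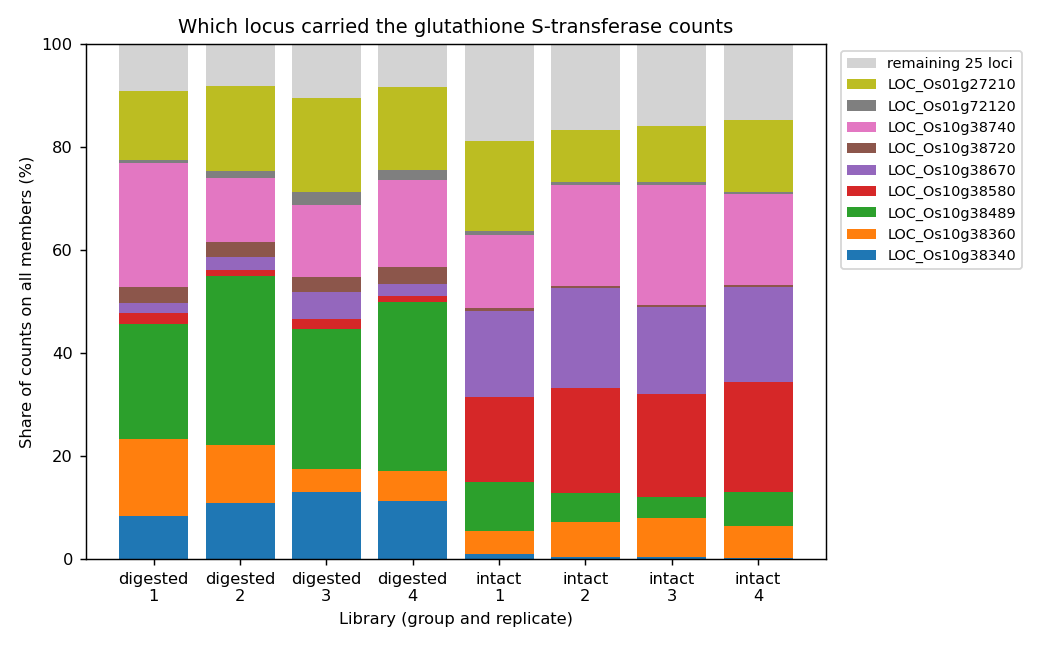
Share of the counts on all 34 members taken by each of the 9 called loci and by the remaining 25 loci, per library, as stacked bars that add up to 100%, digested libraries at left and intact libraries at right. LOC_Os10g38489 averages 28.8% in digested and 6.52% in intact roots, LOC_Os10g38580 averages 1.60% and 19.5%.

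Set against each other, the tandem cluster and the other members were both higher in sum in digested roots. Lower loci were 18.2% of the 11 tested in the cluster and none of the 5 tested others, against 18.5% of all genes tested. The share in the cluster was that over all genes, and 5 loci are too few to read an absence from. The 23 loci of the cluster summed to 2385, 2923, 1905 and 2620 CPM in digested roots, against 817, 1003, 997 and 901 CPM in intact roots, a ratio of means of 2.64. The 11 other members summed to 548, 789, 585 and 712 CPM in digested roots, against 254, 195, 185 and 199 CPM in intact roots, a ratio of 3.16. In each case the groups did not overlap. The cluster held 76.5% to 81.3% of the members' counts in digested and 76.3% to 84.4% in intact libraries, which overlap. By locus, the median log2 fold change was 0.71 for the 11 tested loci of the cluster, with a range of -2.15 to 5.87, and 0.65 for the 5 other tested members, with a range of -0.78 to 2.94. These sums and medians are descriptions, and the medians depend on which loci passed the filter. The difference between the cluster and the other members was not tested. Without LOC_Os10g38489 the ratio of the cluster was 1.81, and without LOC_Os01g27210 that of the other members was 2.64.

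**Figure D4:**
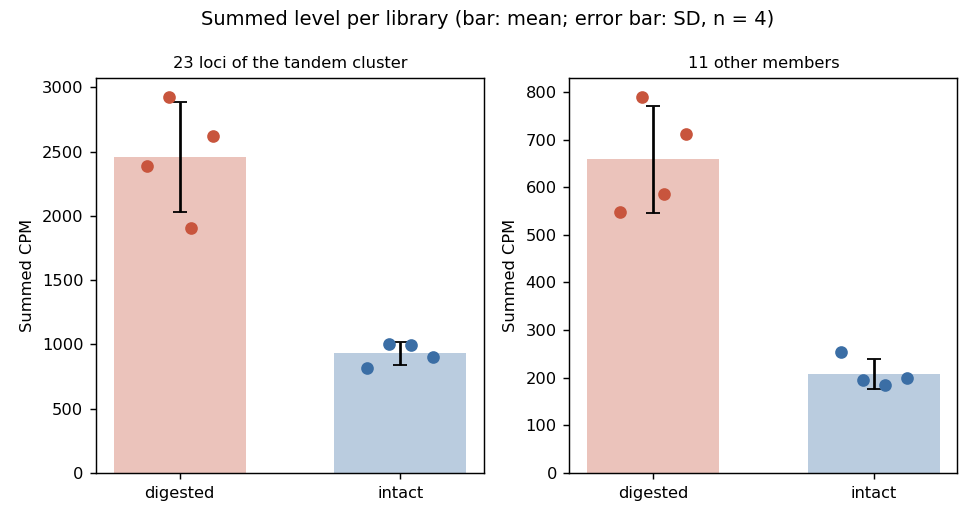
Summed CPM of the 23 loci of the tandem cluster (left) and of the 11 other members (right), on axes that start at 0. Points are libraries, bars means and error bars the SD (n = 4 each). The cluster lies at 1905 to 2923 CPM in digested and 817 to 1003 CPM in intact roots, and the other members at 548 to 789 and 185 to 254 CPM.

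The filter on low counts left out 18 members, 12 of the cluster and 6 others. LOC_Os10g38610, LOC_Os10g38640 and LOC_Os10g38710 had no count in any library. At 3 counts over the 4 libraries of a group, the limit that a count of 0 allows was 3.43 CPM in digested and 0.249 CPM in intact roots. LOC_Os10g38140, with 20 counts in intact roots (1.66 CPM over the group), LOC_Os10g38150, with 12 (0.997 CPM), and LOC_Os10g38540, with 3, had no count in digested roots, where such levels were not detectable at this depth. LOC_Os10g38700 had 1 count in digested and 100 counts in intact roots, or -2.86 as a log2 ratio, where counting error alone gives exact binomial 95% limits of -8.18 and -0.35.

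Among the members left out were also loci with a higher CPM in digested roots. LOC_Os01g49710 had 35.1, 24.6, 0 and 30.3 CPM in digested roots, against 1.80, 2.85, 0 and 0.997 CPM in intact roots. Digested replicate 3, the shallowest library, had no count of it, and the log2 ratio of the summed counts (22 and 16) was 4.24 (limits 3.25 and 5.27). Its partner LOC_Os01g49720 had 13 and 16 counts and a ratio of 3.48 (limits 2.31 and 4.63). LOC_Os01g72130 had 43.8, 22.1, 0 and 0 CPM in digested roots, against 2.16, 3.66, 3.95 and 2.49 CPM in intact roots, so that digested replicates 1 and 2 carried all its digested counts. The cluster locus LOC_Os10g38160 had 8 counts in digested and 2 in intact roots, giving 5.78 as a log2 ratio (limits 3.46 and 9.06). Fitted without the filter, these 4 loci were higher and LOC_Os10g38700 was lower (adjusted p = 5.67e-11, 1.12e-05, 7.78e-06, 6.51e-06 and 0.0216 by edgeR in the order given here), where 6051 of 25256 genes were called. DESeq2 also called these 4 loci higher, but not LOC_Os10g38700 lower (adjusted p = 0.0637). A filter of 1 CPM in 4 libraries called this locus lower (adjusted p = 0.0323 by edgeR). The cluster then had 3 lower loci of 15 tested, where 2967 of 17828 genes were lower. None of the 4 fits that left out 1 digested library called LOC_Os10g38700. The number of other members called higher was 5 with the filter of 1 CPM in 4 libraries, and it was 4 without digested replicate 3. Among all genes, 2703 of 17828 and 2538 of 15181 were called higher in the same order. The 7 other untested members, LOC_Os10g38189, LOC_Os10g38350, LOC_Os10g38470, LOC_Os10g38660, LOC_Os01g72150, LOC_Os01g72160 and LOC_Os01g25100, had at most 8 counts in digested and 47 in intact roots and were not called without the filter.

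With TMM scaling replaced by DESeq2-type size factors, total counts or upper-quartile factors, the median log2 fold change of all genes was -0.20, -0.38 and -0.34 in the order given, against -0.06. Calls over all genes, 2618 higher and 2430 lower with TMM, then numbered 2315 and 2910, 2048 and 3722, and 2096 and 3507. The direction of all 16 tested members and the 9 calls held under each.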

How the data were processed

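The authors' deposited values are raw counts per gene, 1 file per library, from QuantSeq 3′ tag libraries with unique molecular identifiers, aligned to the MSU rice genome release 7. The submitters' processing notes name STAR, UMI-tools, HTSeq and edgeR, without settings or versions, and no other source used here gives them. The 5 HTSeq summary rows, did not enter library sizes. Of everything in a file, reads outside genes were 13.4% to 14.9% in digested and 13.0% to 13.9% in intact libraries.

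The counts were fitted with edgeR 4.0.16 under R 4.3.3 (low genes removed by filterByExpr, TMM scaling, glmQLFit with robust estimation, glmQLFTest, Benjamini-Hochberg adjustment over all 13104 genes tested), on the condition alone. Fold changes are digested over intact. Standard errors (SE) were taken as the size of the log2 fold change over the root of its F statistic. Groups and replicate numbers come from the sample titles, and p-values measure the spread between these samples, which may be technical, since nothing states that they came from separate plantings. No pair of replicates differed by less than sampling noise (a chi-square of 2.00 to 8.43 for each degree of freedom). Intervals and floors cover counting error only.

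The members and lists were chosen with earlier results of these data known. Values in every library are given for each called member and for the 5 most abundant members of each group, which were all called. Other members are given by level, fold change or counts. No identifier was paired with the reference gene table, so no coordinate or sequence is given, and the list of other glutathione enzymes was not used. Alternatives were other scalings, 2 other filters, a replicate block, each library left out, DESeq2 1.42.0, limma-voom (limma 3.58.1), an adjusted p under 0.01, a prior count of 2, thinning of intact counts to the mean digested depth, and, chosen after seeing the data, digested replicates 3 and 4 left out. The procedure was tested on simulated data, with changes placed in genes that were not among the lowest in digested roots. It recovered 34 of 67 changes of 2-fold, all 67 of 4-fold and all 66 of 8-fold. A member with such counts that was not called may therefore have changed by about 2-fold. The simulation did not cover counts as low as those of LOC_Os10g38600, LOC_Os10g38630, LOC_Os01g72170 and LOC_Os01g27360. These had 12, 11, 10 and 4 digested counts, and larger changes may have been missed in them. Figures were drawn with matplotlib 3.10.9.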

Additional observations from a re-analysis of the deposited data

Results flagged for a closer look

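Within each group of 4 libraries, the gap of the highest or lowest library to its nearest neighbour was set against the range of the group, for the 16 tested members and 7 measures per library. Of 46 groups, 4 exceeded Dixon's 95% critical ratio of 0.829, where chance gives about 1 in 20, or 2.3. LOC_Os10g38580 was at 176 CPM in intact replicate 1, against 234 to 243 CPM in the other intact libraries. LOC_Os01g72120 was at 8.63 CPM in the same library, against 4.88 to 5.38 CPM in the others. Without intact replicate 1 both kept their call and direction. The share of ambiguous reads, which overlapped several genes, was 0.240% in digested replicate 1 and 0.147% to 0.162% in the remaining digested libraries. In intact replicate 4 it was 0.0907%, below the 0.112% to 0.117% of the remaining intact libraries.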

How the results depend on the processing

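The single-member results, 16 loci under up to 19 alternatives each (282 values), all kept their direction and their side of the threshold. The fold moved by over 1.5 times for LOC_Os10g38720 after thinning, and for the uncalled LOC_Os10g38630, LOC_Os01g72170 and LOC_Os01g27360 without 1 digested library, and for LOC_Os01g27360 also without digested replicates 3 and 4 (-1.41). The 9 called loci remained called wherever they were tested, with LOC_Os01g72120 not tested after thinning. Called members numbered 14 without the filter, against 9, since 31 in place of 16 members were then tested. In that fit 6051 of 25256 genes were called, against 5048 of 13104 in the main fit. Other members higher in digested roots numbered 5 without the filter, with a filter of 1 CPM in 4 libraries, with DESeq2 and without digested replicates 3 and 4, against 2, each time with 10 or 11 of these members tested. Among all genes, 2939 of 25256, 2703 of 17828, 2751 of 18382 and 2453 of 15868 were higher in the order given, against 2618 of 13104. After thinning of the intact counts 1 of these members was higher, because 1 was tested, where 1327 of 5314 genes were higher. With each library left out in turn, other members called higher numbered 2 to 4, and all called members 9 to 11, where 28.4% to 49.2% of all genes were called. The ratio of summed CPM of the tandem cluster, 2.64, was 2.15 with total counts and 1.81 without its most abundant member, and 2.20 to 2.65 with each library left out. With the replicate block, 9 members and 31.9% of all genes were called, and the block changed no call among the members. Deviations of same-numbered libraries from their group means correlated at -0.29, 0.05, -0.11 and -0.06 for replicates 1 to 4, so the numbers are not taken to pair the samples. Depth limits what could be seen in digested roots, where 18 to 26 members had a count, against 28 to 30 in intact roots.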
